A study of Hakea prostrata with 26 samples.

Results

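Wild leaves of Hakea prostrata at stage 4 of leaf growth were compared with wild leaves at stage 3, with 3 libraries at each stage, 6 of the 26 libraries of the study. The libraries were chosen by their labels alone, and expression was described for single assembled transcripts and for genes, the sum of the transcripts that share a Trinity gene ID. Hakea prostrata is a shrub of the Proteaceae. The stage 4 group and the stage 3 group both came from naturally growing plants in the field in Western Australia that had no treatment. The labels describe a leaf of each stage taken from each of 5 plants, of which the 3 with the best RNA per stage were sequenced as stranded total RNA after removal of ribosomal RNA. The study also holds wild leaves at stages 1, 2 and M, and roots and mature leaves from hydroponics. The labels do not say how a stage was recognised, what M stands for, or from which plant a library came. The files do not pair IDs with names, so the tissue could not be checked against leaf markers and genes are given by ID.

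A leaf first grows by cell division and then by cell expansion, and its cells later build thick walls and a full photosynthetic apparatus. Young tissue spends much of its RNA on proteins for division and growth, and mature leaf on photosynthesis and upkeep. In many Proteaceae of phosphorus-poor soils greening is delayed until the leaf has expanded. Cluster roots, dense tufts of fine rootlets that free phosphate from the soil by exuding carboxylates, form and age within days.

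The stage 4 libraries were shallower than the stage 3 libraries. Total estimated counts, the reads that the authors' quantification assigned to transcripts, were 2564703, 3004146 and 1517382 in stage 4 replicates 1, 2 and 3, against 6044268, 5214880 and 4859829 in stage 3 replicates 1, 2 and 3. A count of 0 in all 3 libraries of a stage therefore allowed up to 3 counts over the group, a level of 0.549 CPM in stage 4 leaves and 0.169 CPM in stage 3 leaves. CPM here is a count per library total, with each total adjusted by TMM, a factor that takes most genes to be unchanged. Stage 4 libraries also resembled each other less. Across genes, log2 CPM correlated at r = 0.889 to 0.913 between stage 4 libraries and at 0.947 to 0.959 between stage 3 libraries. Among 8532 genes with a mean log2 CPM of at least 4, the median SD of log2 CPM was 0.356 at stage 4 and 0.169 at stage 3, and 81.05% of these genes had the larger SD at stage 4. The spread at stage 4 was also above the median SD of 0.250 at stage M. The part of depth in this spread was not tested.

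Many of the expressed genes differed between stage 4 and stage 3 leaves, and the falls were larger than the rises. Of 16668 tested genes 5722 passed (34.3%; edgeR's quasi-likelihood test, Benjamini-Hochberg adjusted p under 0.05), of which 2606 rose at stage 4 (15.6% of those tested) and 3116 fell (18.7%). The median log2 fold change was 1.05 among the genes that rose and -1.57 among those that fell (-1.53 with genes at 0 in all libraries of a stage set to their bound against 3 counts). It was -0.09 over all tested genes. A change of at least 4-fold was fitted for 361 genes that rose and 1201 that fell (1128 with genes at their bound). These are bulk leaves, in which fewer cells of a type and less RNA per cell cannot be told apart. At the level of single transcripts 5944 of 31067 passed (19.1%). Fitted on stages 3 and 4 alone, 4011 genes and 3234 transcripts passed. Values are relative to the other RNA of a library: scaled by total counts alone, the median of all genes was -0.59, and 16.2% of the 6633 genes that then passed rose, against 45.5% of the 5722. The CPM values of the 3 stage 4 and the 3 stage 3 libraries did not overlap for 7240 tested genes (43.4%), among them 5424 of the 5722 that passed.

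**Figure D1:**
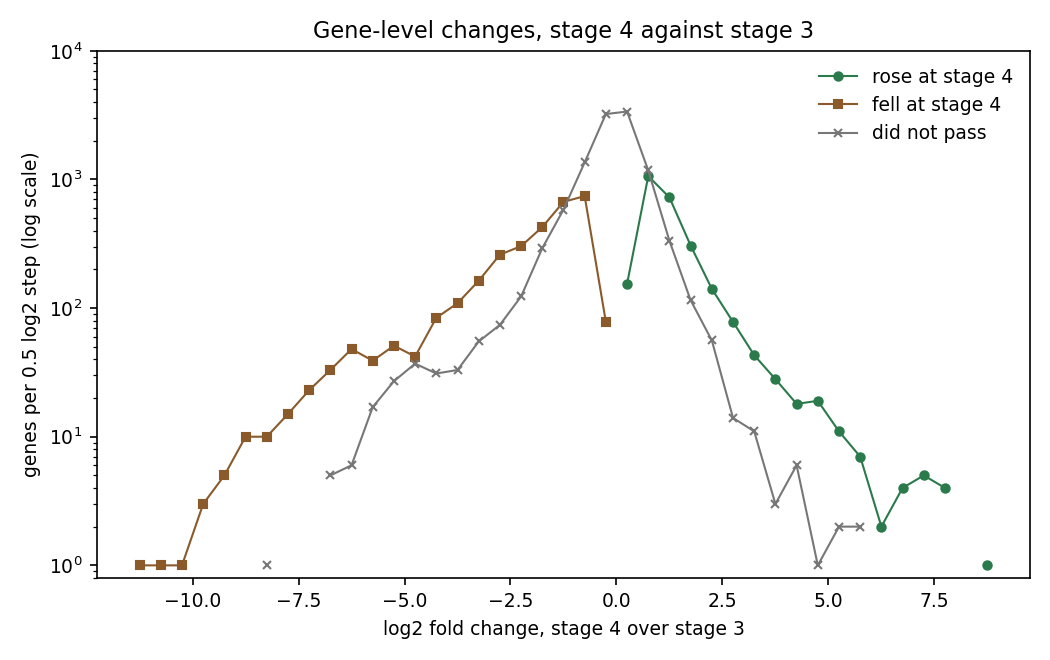
Number of genes (y axis, log scale, per 0.5 step) by log2 fold change of stage 4 over stage 3 (x axis), for the 2606 genes that rose, the 3116 that fell and those that did not pass; steps with no gene are not drawn. As fitted, the branch of genes that fell reaches further from 0 than the branch that rose, with medians of -1.57 and 1.05. Its far end includes genes at 0 in all 3 stage 4 libraries, for which only a bound is known. Falls of at least 16-fold number 366 as fitted and 240 with bounds, and such rises 71 and 67.

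The balance of rises and falls depended on how abundant a gene was. With genes ordered by their mean level over the 15 wild leaf libraries and divided into 4 bands of 4167, 138 rose and 290 fell in the lowest band. In the second band 284 rose and 916 fell, and in the third 747 rose and 959 fell. With TMM scaling, rises outnumbered falls only in the highest of the 4 bands, where 1437 rose and 951 fell. The share that passed went up with abundance, through 10.3%, 28.8%, 40.9% and 57.3%, and the power of the test also goes up with counts. In the lowest band the median log2 fold change of the genes that passed was 2.61 upward and -3.18 downward, against 0.99 and -1.04 in the highest.

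A small set of transcripts held a large share of the counts at stage 4. Shares of counts are not corrected for length, and the IDs do not tell what kind of RNA these transcripts are. The 3 most abundant transcripts at stage 4, ranked by their mean there, held 15.9%, 20.7% and 17.1% of the counts of stage 4 replicates 1, 2 and 3, against 4.65%, 4.46% and 5.59% of those of stage 3. The stage 4 share was above every stage 3 share, at 17.9 ± 2.46% against 4.90 ± 0.607% (SD, n = 3 each; two-sided exact permutation test, p = 0.1, the smallest that 3 against 3 libraries allow). Each of the 3 transcripts rose, with log2 fold changes of 2.33, 2.25 and 2.31 (SE 0.34, 0.28 and 0.31; edgeR, adjusted p = 0.000384, 0.000136 and 0.000247). These transcripts were chosen by their stage 4 level. That favours stage 4 in the share and in the fold changes, so both are a description. At stage M their share was 36.9%, 37.9% and 25.03%. The most abundant transcripts of each library that together held 50% of its counts were also counted. They numbered 350, 183 and 294 in the stage 4 libraries, against 1113, 982 and 928 in the stage 3 libraries. Fewer transcripts were detected at stage 4. With every library thinned to the total of the shallowest, at least 1 count was found for 29602, 27887 and 27562 transcripts at stage 4, against 33202, 32990 and 32209 at stage 3. The mean difference was -4450 transcripts, and the ranges did not overlap (two-sided exact permutation test, p = 0.1, again the smallest possible). Thinning made only the totals equal. With more counts in the most abundant transcripts, fewer were left for the others at stage 4, so detection is not independent of the shares above.

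Some genes were at 0 in every stage 4 library. Of the genes that fell, 139 had 0 counts in all 3 stage 4 libraries, while 11 of the genes that rose had 0 in all 3 stage 3 libraries. Of all 16668 tested genes, 389 were at 0 in all 3 stage 4 libraries and 48 in all 3 stage 3 libraries. Most of the 139 were low at stage 3, with a median of 2.04 CPM, and their median bound was at least 3.72-fold lower at stage 4. At stage M, a group outside this comparison but part of the fit, 67 of the 139 were at 0 in all libraries. In all, 122 had at most 3 counts there, while 17 had more. The share of all tested genes with so few counts at stage M was not taken, and genes of low level reach 0 more easily. A stricter pattern, at least 10 counts in each of the 9 libraries of stages 1 to 3 and 0 in all 6 libraries of stages 4 and M, was met by 22 genes and 84 transcripts. Its mirror image was met by 1 gene and 2 transcripts. These counts were not scaled for depth, and every library of stages 4 and M was shallower than every library of stages 1 to 3. A count of 0 is therefore easier to meet at stages 4 and M, and 10 counts are harder to reach there.

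The genes with the largest rises were at 0 or low up to stage 3, at 5.18 CPM or less in every library of stages 1 to 3. TRINITY_DN23289_c1_g1 had 7.41, 9.31 and 11.2 CPM in stage 4 replicates 1, 2 and 3 and 0 in all 3 stage 3 libraries. It was also at 0 in all libraries of stages 1 and 2, and had 35.7 to 45.1 CPM at stage M. Its 49 counts at stage 4 put it at least 54.9-fold higher there than at stage 3 (at least 33.6-fold without stage 3 replicate 1; edgeR, adjusted p = 2.26e-05). In hydroponics it had 28.7 to 56.0 CPM in the 3 mature leaf libraries and at most 0.612 CPM in any root library, so that its counts came almost wholly from leaves of stage 4, stage M and the mature hydroponic plants.

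TRINITY_DN1634_c0_g4 differed widely between the stage 4 libraries. It had 19.0, 299.8 and 99.0 CPM in stage 4 replicates 1, 2 and 3, against 0.146, 0.528 and 1.56 CPM in stage 3 replicates 1, 2 and 3. All stage 4 values lay above all stage 3 values, which the rule for naming a gene required. The SD at stage 4, 145 CPM, exceeded the mean of 139 CPM. The log2 fold change was 7.63 (SE 1.00; edgeR, adjusted p = 8.47e-05), 6.28 when stage 4 replicate 2 and 8.68 when stage 3 replicate 3 was left out. At stage M it had 331.9 to 462.8 CPM, all above the stage 4 values. Its hydroponic levels were 155, 145 and 24.0 CPM in mature leaf at 1, 10 and 50 uM phosphate, with 1 library at each, and 18.7 CPM in cluster root on day 12, against at most 0.904 CPM in the other root libraries.

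The genes with the largest falls were expressed through stages 1 to 3 and at or near 0 afterwards. TRINITY_DN137_c1_g2 had 0 counts in all 3 stage 4 libraries, against 106, 35.0 and 24.5 CPM in stage 3 replicates 1, 2 and 3. The stage 3 libraries thus differed among themselves by more than 4-fold, with replicate 1 highest, as it was at stage 2. The gene was at least 101-fold lower at stage 4 (edgeR, adjusted p = 0.000231), and the bound was 54.2-fold with stage 3 replicate 1 left out, 60.9-fold with stage 4 replicate 1 left out and 61.1-fold with stage 4 replicate 2 left out. At stage M a single count was found in 1 library, and in hydroponics it had 0.857 to 2.00 CPM in mature leaf and at most 0.182 CPM in roots.

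TRINITY_DN6382_c0_g1 likewise had 0 counts in all 3 stage 4 libraries, against 45.7, 25.9 and 52.7 CPM in stage 3 replicates 1, 2 and 3. Its levels at stage 1 were lower, 12.8 to 19.2 CPM. At stage 2 it had 46.2, 28.0 and 34.1 CPM in replicates 1, 2 and 3. Stage 3 against stage 2 did not pass (log2 fold change 0.19, SE 0.32, edgeR, adjusted p = 0.786). The gene was at least 75.5-fold lower at stage 4 (edgeR, adjusted p = 6.02e-06), with bounds of 45.7-fold and 45.9-fold if stage 4 replicate 1 or 2 is left out. At stage M only replicate 3 had counts, 2 in number. Its highest hydroponic level was 5.58 CPM, in cluster root on day 0. All 4 of these genes have a single isoform in the data, and for each the call held under all 25 alternatives run.

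**Figure D2:**
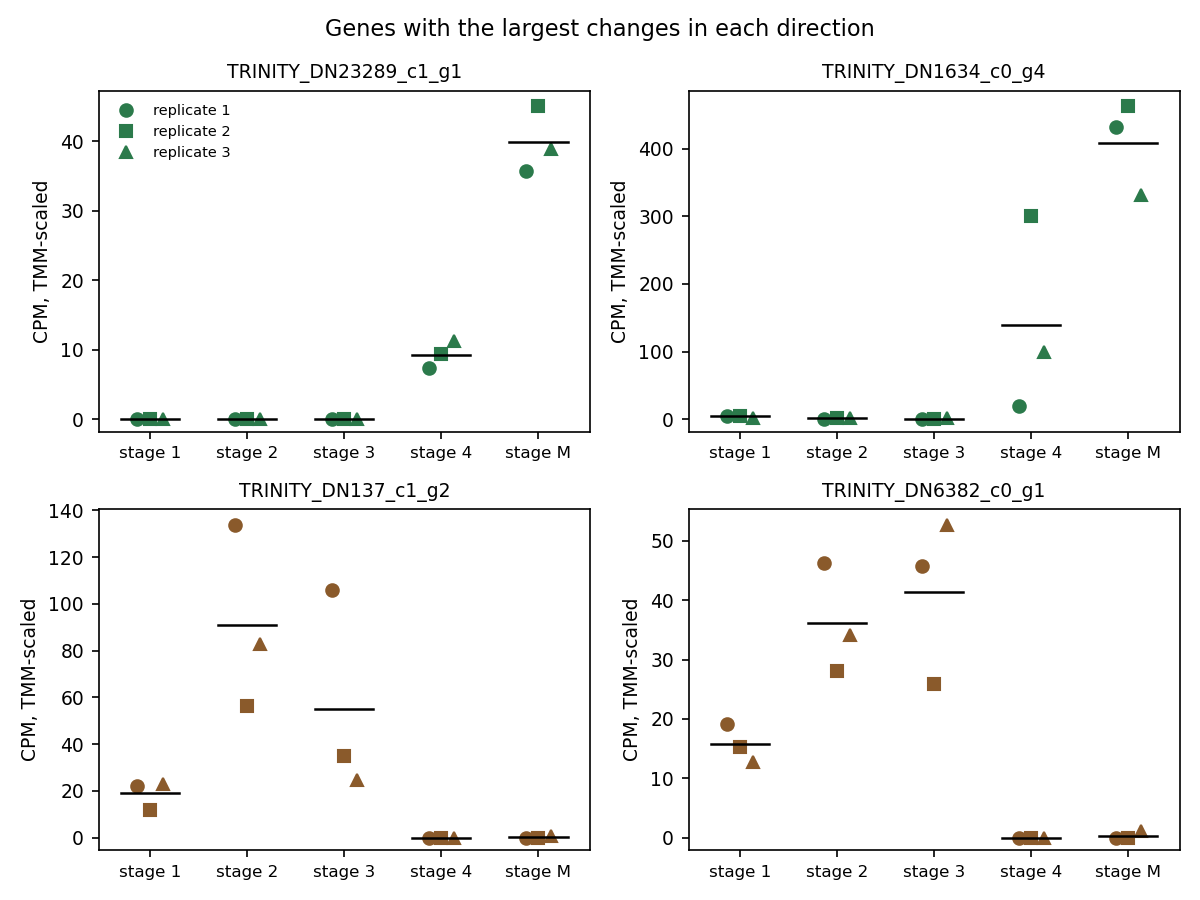
CPM scaled by TMM (y axes, linear) of the 2 genes with the largest rise (green) and the 2 with the largest fall (brown) in each wild leaf library, by stage (x axes); symbols mark the replicate number and bars the mean of 3 libraries. Both genes in green are at 5.18 CPM or less up to stage 3, and both in brown are at 0 in all 3 stage 4 libraries.

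The direction of change at stage 4 was set against stages M and 2, which share no library with stages 4 and 3. Stage M was higher than stage 2 for 4068 tested genes (24.4%) and lower for 5564 (33.4%; edgeR, adjusted p under 0.05). Of the 2606 genes that rose at stage 4, 2396 (91.9%) were higher at stage M than at stage 2 and 12 were lower. Of the 3116 that fell, 2720 (87.3%) were lower at stage M and 11 were higher. As a share of the other lists, these are 58.9% of the genes higher at stage M and 48.9% of those lower. The median level of the genes that rose over stages 1, 2, 3, 4 and M was 23.8, 27.8, 37.3, 77.0 and 91.1 CPM, and 70.6% had their highest stage mean at M and 27.4% at stage 4. The genes that fell had medians of 31.7, 30.7, 25.8, 7.51 and 5.34 CPM in the same order. Their highest mean was at stage 1 for 44.8%, at stage 2 for 24.9% and at stage 3 for 29.4%. The difference between stages 4 and 3 in these medians is fixed by the choice of the genes.

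Stage 4 libraries stood between the earlier stages and stage M, at distances that differed from leaf to leaf. A scale was made from genes that differed at least 4-fold between stages M and 2, with 0 for the stage 2 mean and 100 for the stage M mean of each gene, and the median was taken per library. On the 1307 genes higher at stage M, stage 4 replicates 1, 2 and 3 were at 69.2%, 92.1% and 74.95%, against 24.0%, 28.5% and 27.2% for stage 3. On the 3125 genes lower at stage M, the stage 4 replicates were at 57.6%, 85.2% and 66.8%, against 9.56%, 14.0% and 15.6% for stage 3. All stage 4 libraries were beyond all stage 3 libraries on both sets, and stage 4 replicate 2 was nearest to stage M. That replicate was the farthest from the stage 3 mean for 69.5% of the genes that rose at stage 4 and 53.1% of those that fell. Replicate 1 was the nearest for 57.1% and 46.8%. Replicate 2 was also the deepest of the stage 4 libraries, and replicate 3 the shallowest. The part of depth in these positions was not tested.

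**Figure D3:**
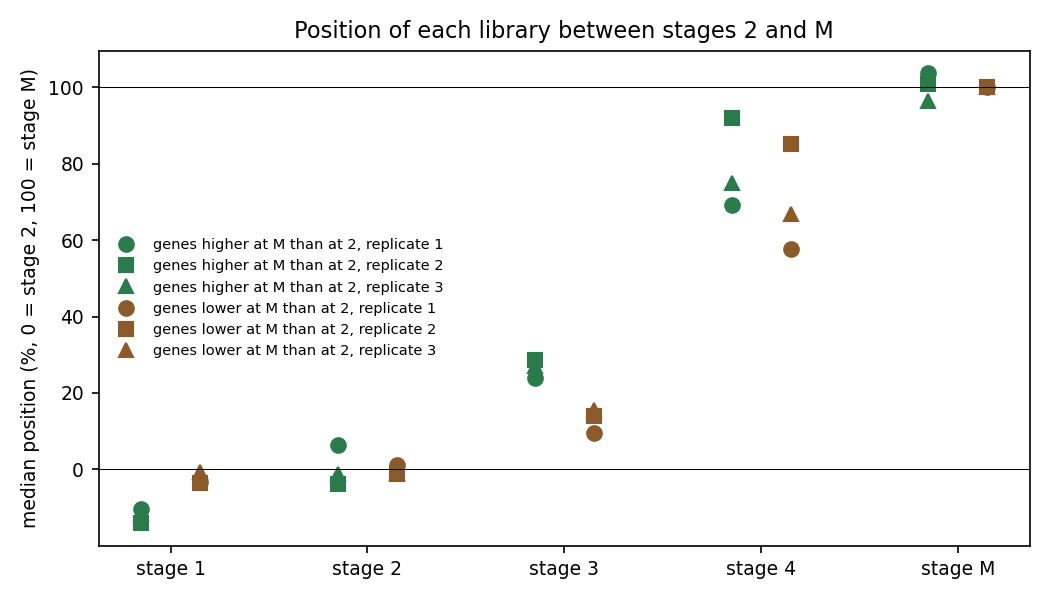
Median position of each wild leaf library (y axis, %) on a scale where 0 is the mean of stage 2 and 100 the mean of stage M, by stage (x axis), for 1307 genes higher (green) and 3125 genes lower (brown) at stage M than at stage 2. Stage 4 libraries lie from 57.6% to 92.1% and stage 3 libraries from 9.56% to 28.5%. Libraries of stages 2 and M set the scale, so their positions near 0 and 100 follow from it.

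For part of the genes the change between stages 4 and 3 differed from earlier changes. A test of the difference between this change and that between stages 2 and 1, which shares no library with it, passed for 3526 genes (21.2%), with 1246 more positive and 2280 more negative in the later step. Of the genes that fell at stage 4 it passed for 1967 (63.1%), all more negative, and of those that rose for 1029 more positive (39.5%) and 8 more negative. Those genes were chosen by 1 side of this contrast, so their shares are a description. Against the change between stages 3 and 2, which uses the same stage 3 libraries, the difference passed for 1223 genes (7.34%), 212 more positive and 1011 more negative. With the replicate number as a block, this count was 2008. Leaving out stage 3 replicate 1, 2 or 3 gave 630, 606 and 652, and leaving out stage 2 replicate 2 gave 812.

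Among genes typical of mature leaf in hydroponics most rose, while most of those typical of root did not pass and the rest mainly fell. Because the IDs carry no names, 4 lists were made from the hydroponic libraries, which have 1 library per condition and do not enter the comparison. The leaf-enriched list holds 1642 genes whose mature leaf level exceeded their white root level by at least 4-fold at each of 3 phosphate supplies, and the root-enriched list 1854 genes in which white root exceeded mature leaf. Of 1584 tested leaf-enriched genes 1005 rose at stage 4 (63.4%), 83 fell and 496 did not pass, with a median log2 fold change of 0.99, where 15.6% of all tested genes rose. Scaled by total counts alone, 620 rose and 146 fell. Of 1161 tested root-enriched genes 24 rose, 358 fell (30.8%, where 18.7% of all tested genes fell) and 779 did not pass, with a median of -0.89 (-0.69 with bounds). The median log2 CPM of the leaf-enriched genes was 6.04, 6.44 and 6.23 in stage 4 replicates 1, 2 and 3, against 5.19, 5.34 and 5.35 in stage 3. That of the root-enriched genes was 1.42, 0.81 and 1.06 at stage 4, against 2.45, 2.40 and 2.21 at stage 3. Of the stage 4 libraries, replicate 2 had the highest leaf-enriched and the lowest root-enriched median. The leaves behind the lists were mature, so that organ and age cannot be told apart in them. Root-enriched genes were tested only where wild leaf expressed them, which leaves more room to fall than to rise.

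Among genes that mark the young cluster root falls outnumbered rises, and among those that mark the older one rises outnumbered falls with TMM scaling but not with total counts alone. The young cluster root list holds 1851 genes at least 4-fold higher on days 0 and 1 than on day 12, and the older cluster root list 1133 genes with the reverse pattern. Of 1683 tested young genes 139 rose, 720 fell (42.8%) and 824 did not pass, with a median of -1.001 (-0.89 with bounds). Of 691 tested older genes 208 rose (30.1%), 68 fell and 415 did not pass, with a median of 0.38. Over all tested genes 15.6% rose and 18.7% fell, with a median of -0.09. Scaled by total counts alone, 120 older genes rose and 120 fell, so that rises no longer outnumbered falls within the list. With that scaling falls far outnumbered rises over all tested genes, of which 1073 rose and 5560 fell, so the older list still leaned less to falls. The young genes were divided by organ. Of 395 tested genes that are also root-enriched 3 rose and 219 fell (55.4%; median -2.58, -2.02 with bounds). The 1160 tested genes in neither organ list, which mature leaf and white root did not separate, had 59 that rose and 493 that fell (42.5%; median -0.80, -0.79 with bounds). The 128 tested genes that are leaf-enriched went the other way, with 77 that rose and 8 that fell (median 0.81). No difference between lists was tested.

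**Figure D4:**
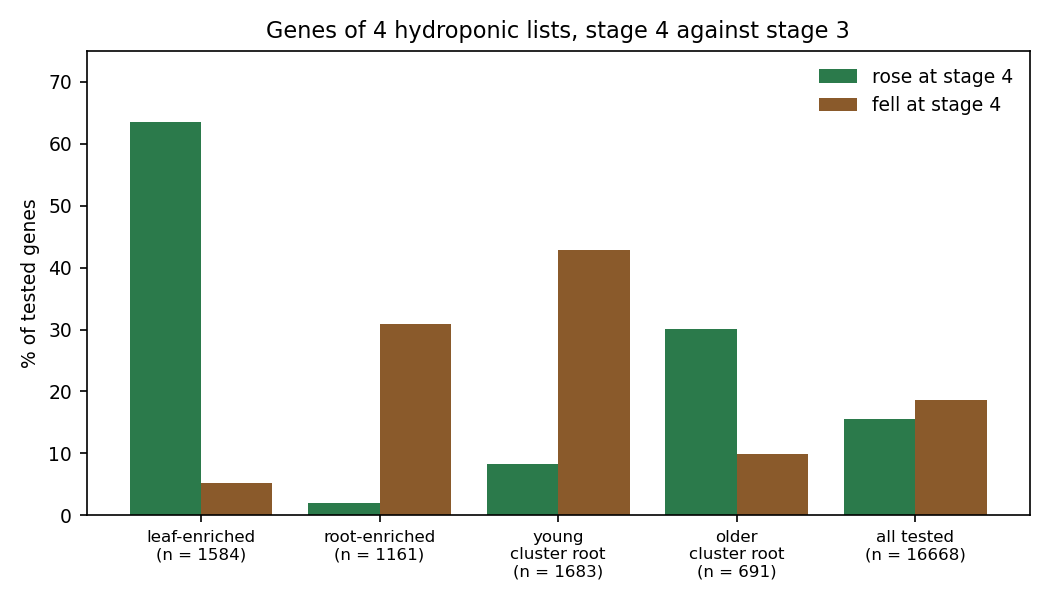
Percentage of tested genes (y axis, from 0) that rose (green) or fell (brown) at stage 4 against stage 3, for 4 lists made from hydroponic libraries and for all 16668 tested genes (x axis, with the number tested). Rises stand out in the leaf-enriched list (63.4%) and falls in the young cluster root list (42.8%).

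The hydroponic tissue in which the most changed genes peaked was also recorded, without the lists. Of the 361 genes that rose at least 4-fold, 78.7% had their highest hydroponic mean in mature leaf, where 37.1% of all tested genes did. For cluster root on day 12 the share was 13.6%, below the 23.9% of all tested genes, while the older cluster root list held more rises than falls with TMM scaling. Of the 1201 genes with a fitted fall of at least 4-fold, 39.7% had it in cluster root on days 0 and 1 (all tested genes 21.3%) and 20.1% in white root (all 9.59%). Mature hydroponic leaf had under 1 CPM of 16.2% of the genes that fell at least 4-fold, of 5.82% of those that rose at least 4-fold and of 11.2% of all. The rest of the genes that fell at least 4-fold were at 1 CPM or more in that tissue.

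In some genes the isoforms changed unequally, also where the gene's total did not pass. Of 7477 genes with at least 2 tested isoforms, 467 shifted in isoform usage (6.25%; edgeR's diffSpliceDGE, gene-level F test, adjusted p under 0.05). Of these, 125 rose as genes, 145 fell and 197 did not pass at gene level. The count was 306 without stage 3 replicate 1, 208 in a fit of stages 3 and 4 alone and 184 when transcript tests were combined per gene by Simes adjustment. Isoforms of a gene share reads, and the test does not take that uncertainty into account. Shares of isoforms are of counts and are not corrected for length. The isoform with the highest mean differed between stages 4 and 3 in 166 of the 467 (35.5%), against 1241 of the 7477 (16.6%). In 88 genes at least 1 isoform rose and another fell; 43 of these rose as genes, 10 fell and 35 did not pass. Summing isoforms mattered for the counts too: 5291 of the 5944 transcripts that passed belonged to a gene that passed in the same direction, 585 to a gene that did not pass and 68 to one that passed the opposite way. Conversely, 1408 genes passed with no single transcript that did.

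TRINITY_DN4692_c1_g1 exchanged one isoform for another, with a small difference in its total. Isoform TRINITY_DN4692_c1_g1_i10 had 223.5, 229 and 201 CPM in stage 4 replicates 1, 2 and 3, against 14.4, 18.2 and 15.8 CPM in stage 3 (log2 fold change 3.76, SE 0.28; edgeR, adjusted p = 3.47e-06). Isoform TRINITY_DN4692_c1_g1_i11 had 0 in all 3 stage 4 libraries, against 165, 185 and 161 CPM in stage 3. It was at least 324-fold lower at stage 4 (edgeR, adjusted p = 4.57e-07), a bound of 198-fold or 197-fold if stage 4 replicate 1 or 2 is left out. By share, i10 held 95.1 ± 1.54% of the gene's counts at stage 4 and 7.93 ± 0.690% at stage 3, and i11 held 0% and 83.8 ± 2.08% (SD, n = 3 each). The shift in usage had an adjusted p of 3.30e-16 (edgeR). The gene as a whole had 240.2 ± 12.04 CPM at stage 4 and 199.8 ± 12.3 CPM at stage 3, a log2 difference of 0.27 (SE 0.12) that missed the threshold (edgeR, adjusted p = 0.114; with a replicate block 0.0837). The total was 245.5, 248.6 and 226.4 CPM in stage 4 replicates 1, 2 and 3, against 197.5, 213.1 and 188.9 CPM in stage 3, higher in each pair of equal number and with no overlap. It passed with DESeq2 (adjusted p = 0.0446), and with total counts alone its direction turned (log2 fold change -0.24; edgeR, adjusted p = 0.224). The third isoform, TRINITY_DN4692_c1_g1_i1, held 4.90 ± 1.54% and 8.23 ± 2.74%. Stages 1 and 2 resembled stage 3, with i11 at 78.3 ± 6.91% and 79.8 ± 6.64%, and at stage M i11 was again at 0 in all libraries. Hydroponic leaves did not repeat this: i11 held 15.3%, 69.0% and 66.6% in mature leaf at 1, 10 and 50 uM phosphate. In the hydroponic root libraries it held 80.5% to 97.1%.

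TRINITY_DN1062_c3_g1 changed its isoforms while the gene fell. The gene had 16.6 ± 1.98 CPM at stage 4 and 38.8 ± 4.86 CPM at stage 3 (log2 fold change -1.23, SE 0.18; edgeR, adjusted p = 9.34e-05). Isoform TRINITY_DN1062_c3_g1_i3 had 3.15, 1.33 and 0 CPM in stage 4 replicates 1, 2 and 3, against 36.6, 25.8 and 35.6 CPM in stage 3 (log2 fold change -4.24, SE 0.44, and -5.25 without stage 4 replicate 1; edgeR, adjusted p = 4.35e-05). Isoform TRINITY_DN1062_c3_g1_i5 had 8.11, 14.2 and 10.4 CPM at stage 4, against 1.78, 2.14 and 1.58 CPM at stage 3 (log2 fold change 2.56, SE 0.69; edgeR, adjusted p = 0.0184). So the minor isoform of stage 3 became the major one of stage 4, with 68.4 ± 12.3% against 4.74 ± 1.26% of the gene's counts, and i3 went the other way, with 10.1 ± 11.5% against 82.6 ± 8.37% (SD, n = 3 each; usage, edgeR, adjusted p = 4.91e-06). These shares rest on 90 counts of the gene in all at stage 4 and 693 at stage 3. The rise of i5 did not pass when stage 3 replicate 1, 2 or 3 or stage 4 replicate 2 was left out (edgeR, adjusted p = 0.0661, 0.0505, 0.0641 and 0.0658) nor with thinned libraries (0.0536). Its share averaged 1.17 ± 1.09% in stage 1 leaves, 0.752 ± 0.717% in stage 2 leaves and 77.7 ± 7.61% in stage M leaves. In hydroponics i5 held 35.2%, 34.4% and 71.6% in mature leaf at 1, 10 and 50 uM phosphate. Over the cluster root days it held 4.92% on day 0, 8.0% on day 1, 70.6% on day 4, 71.7% on day 7 and 71.8% on day 12, with 1 library per day and as few as 39 counts of the gene. The pair of genes was taken from 73 in which 1 isoform rose and another fell with ranges that did not overlap.

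**Figure D5:**
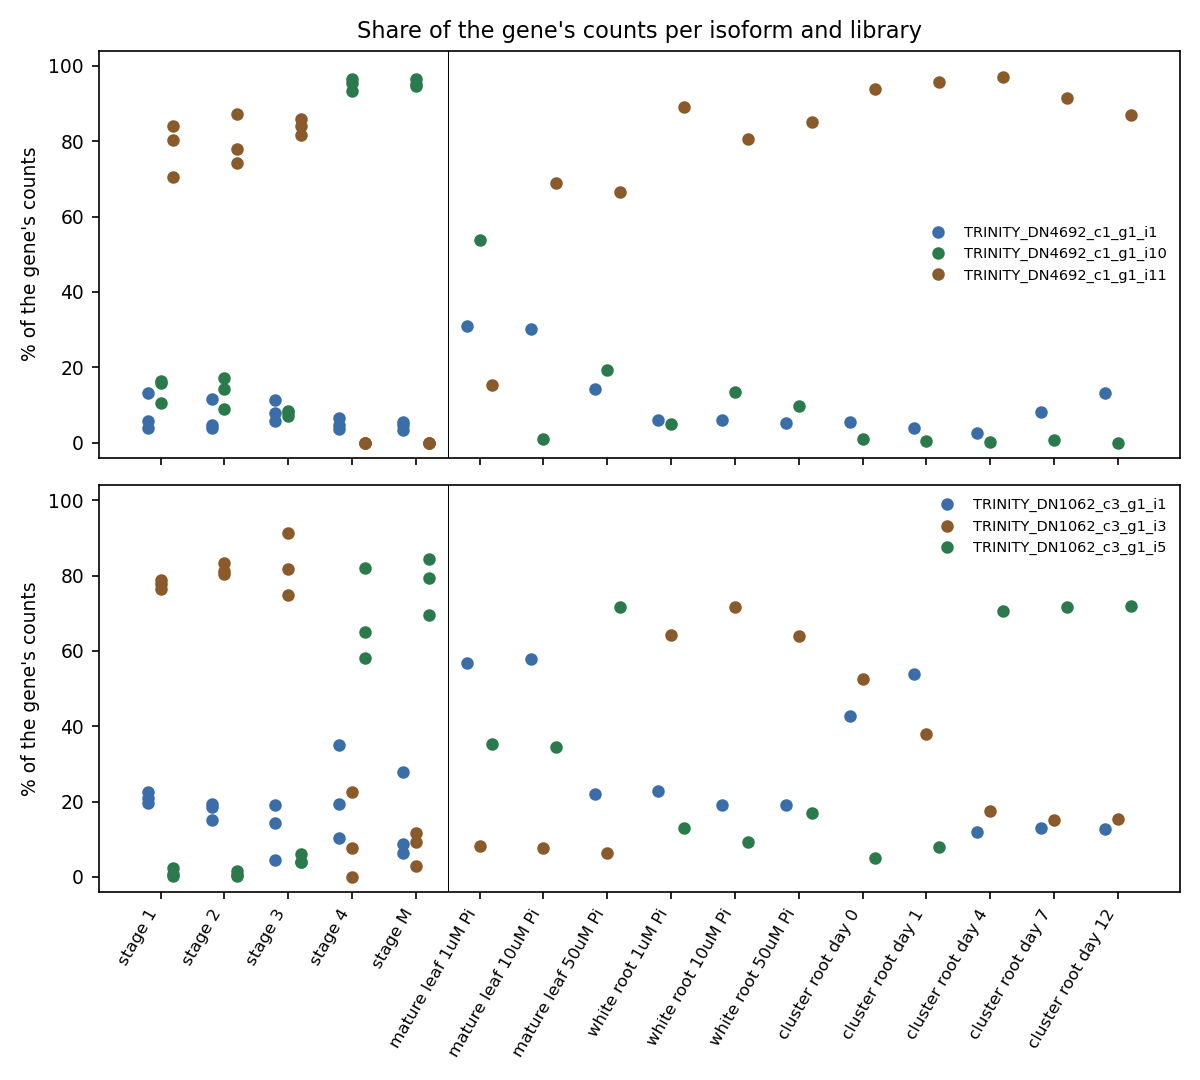
Share of a gene's counts (y axes, %) held by each of its 3 isoforms in every library, for TRINITY_DN4692_c1_g1 (top) and TRINITY_DN1062_c3_g1 (bottom); points are libraries, 3 per wild leaf stage left of the line and 1 per hydroponic condition right of it. The isoform that rose at stage 4 is green, the one that fell is brown and the third is blue; at stage 4 the green isoforms hold 95.1% and 68.4% on average, against 7.93% and 4.74% at stage 3.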

How the data were processed

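Total RNA of field-grown leaves was sequenced once ribosomal RNA had been depleted, per the labels' protocols. The authors deposited estimated counts per assembled transcript, and 30.2 to 48.0% of the values of the 6 libraries were not whole. The submitters' processing notes list Trim Galore 0.6.6, kallisto and DESeq2 1.30.1 without saying what each did. How the assembly was made is not given in the sources used here, nor are trimming and strand settings.

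Groups were taken from the labels. Estimated counts were rounded, after summing isoforms (IDs without the isoform part) for genes. The data hold 51697 transcripts of 25047 genes, 11687 with several isoforms. edgeR 4.0.16 (R 4.3.3) filtered features with filterByExpr, grouped by stage, at a minimum count of 10 and a minimum total of 15. TMM factors and a robust quasi-likelihood fit of the 15 wild leaf libraries followed. The fit had stage alone as factor, which left 10 residual degrees of freedom. It gave each gene a single spread shared by all stages, although the median SD was largest at stage 4. Adjusted p can therefore be too small for genes that vary more at stage 4. P-values were adjusted by Benjamini-Hochberg over all features tested, and an adjusted p under 0.05 passed. The SE was computed as the size of the log2 fold change divided by the root of F. Per the labels, replicates of a stage come from different plants. The scripts were tested on simulated data.

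Where a group had no counts, 3 counts over that group stood in for it, and the fold is then a lower bound. Leaving out a library with no counts lowers it by construction. Lists needed a log2 CPM (prior count 2) differing by at least 2 and at least 100 counts in a hydroponic library. Named genes have the largest log2 fold change among those that passed, averaged log2 CPM 2 or more and had no overlap of ranges, 2 in each direction. Named isoform pairs, 2 genes, have the largest of the smaller of both changes. The comparison, lists and rules were chosen with earlier results of these data known.

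Replicate numbers were checked for pairing. For the 30 library pairs of equal number, deviations from stage means had r = 0.159 to 0.584, and for 15 of 15 libraries the closest match bore its own number. Pairing was inferred from these values, not from the labels. The replicate block was an alternative. Further settings were DESeq2 1.42.0 as tool or for size factors only, TMM factors that ignore the top 20 features, the filter dropped or tightened (every library of a stage at 1 CPM, total of 50), a 1.5-fold null, stages 3 and 4 alone, thinning to one total, each library left out and, chosen after seeing the data, scaling by total counts alone and all settings for the gene totals of the isoform pairs.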

Additional observations from a re-analysis of the deposited data

How the results depend on the processing

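Directions of all named genes and isoforms held under all alternatives run, except that the total of TRINITY_DN4692_c1_g1, which did not pass, turned to -0.236 with total counts only. A test against a 1.5-fold change left 3044 genes and 3318 transcripts, and stages 3 and 4 alone left 4011 genes and 3234 transcripts. For genes that rose in the leaf-enriched list, the counts were 660 in the 1.5-fold test, 620 with total counts only and 666 with 8-fold lists. For genes that fell in the root-enriched list they were 237 with stages 3 and 4 alone, 175 with 8-fold lists and 581 with hydroponic libraries scaled by total counts, and in the young cluster root list 390 with 8-fold lists. In the older cluster root list 137 rose in the 1.5-fold test, 120 with total counts only, 63 with 8-fold lists and 137 with the hydroponic scaling. Isoform usage shifts numbered 184 by Simes adjustment and 208 with stages 3 and 4 alone. With the replicate block, which took the genes to 6501 and transcripts to 6907, 2008 genes differed from the change between stages 3 and 2; it changed the call of no named gene, gene total or isoform and moved no other count by over 1.5 times. DESeq2 passed 6213 genes and 7859 transcripts (adjusted p undefined for 37 and 711). The share of the 100 most abundant transcripts differed by 18.628 percentage points. Detected transcripts differed by -7283.7 unthinned and by -3341.7 at 10 counts or more. Without 1 library at a time, the ranges were 4174 to 6170 transcripts, 4456 to 5789 genes, 834 to 1000 leaf-enriched, 286 to 362 root-enriched, 616 to 732 young and 174 to 213 older cluster root genes, 306 to 546 usage shifts, 2671 to 3924 genes against the change between stages 2 and 1, 606 to 1814 against that between 3 and 2, 8751 to 10032 genes between stages M and 2, a share difference of 11.645 to 14.013 points, and -5075.8 to -4055.8 detected transcripts. Where a count moved, the cause was not tested, except that the test against a 1.5-fold change and the 8-fold lists leave fewer by construction. The low depth of stage 4 limits what can be said of genes at 0.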
